A study of Mus musculus with 6 samples.

Results

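NF-kB is a family of transcription factors built as dimers of Rel-type subunits. In resting cells, inhibitors of the IkB family hold the dimers in the cytosol, and kinases of the IKK complex release them when a cytokine or an activating receptor is engaged. Some of the genes that NF-kB switches on encode its own inhibitors, which closes a negative feedback loop. In innate lymphocytes the pathway is known for driving cytokine, chemokine and survival genes. The genes described here were 10 subunits and feedback regulators of that family (Nfkbia, Nfkbiz, Nfkbid, Nfkb1, Nfkb2, Rel, Relb, Tnfaip3, Birc3 and Bcl3), taken by symbol from the 24091 genes of the deposited count table. All 10 were found, and all 10 passed the filter on low counts, as did 12469 genes in total.

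The cells were type 1 innate lymphoid cells (ILC1), tissue-resident lymphocytes, from the liver of C57BL/6 mice. The AML mice had been injected intravenously with C1498, a transplantable acute myeloid leukaemia line, and the healthy mice had not. Each group had 3 libraries, called here AML 1 to 3 and healthy 1 to 3, and all were labelled day 14. No label says how the cells were gated, which sex or age the animals had, or whether a library came from 1 animal or a pool, so p-values measure the spread between libraries, which may be technical in part.

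Total counts were similar, from 45135093 to 51284691 per library, and the lowest count of any member in any library was 810, for Rel in AML 3. The ILC1 markers Itga1, Ncr1 and Tbx21 stood at 365 to 452, 1458 to 1813 and 644 to 824 CPM (read counts relative to the scaled size of the library). Summed over the 9 of 10 ILC1 markers in the table, the level was 10027 to 10899 CPM, of which Il2rb made 4342 to 5066 CPM. The sums for other cell types were lower. The 8 T cell markers summed to 979 to 1693 CPM, most of it Cd3g. The 6 monocyte markers summed to 541 to 698 CPM in AML libraries and to 67.5, 72.5 and 534 CPM in healthy ones, where healthy 1 was the high library. The 8 neutrophil markers, none of them at 0 reads in every library, summed to 165 CPM in AML 1 and to between 0.583 and 15.2 CPM in the other 5 libraries. The 6 B cell markers summed to 5.36 to 7.82 CPM, with Pax5 at 0 reads throughout. Of the 8 NK cell markers, which summed to 110 to 150 CPM, most of it Itgam, Klra4 was at 0 reads throughout. The 10 Kupffer cell markers summed to 24.4 to 84.3 CPM in healthy and 119 to 190.2 CPM in AML libraries, and the 10 dendritic cell markers to 106 to 202 and 367 to 660 CPM. Hepatocyte markers, most of it Trf, summed to 187 to 277 CPM and endothelial markers, most of it Pecam1, to 91.1 to 126 CPM. In bulk libraries such as these, fewer cells of a type and less RNA per cell cannot be told apart.

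The sequences just upstream of 4 members are shown because NF-kB acts on its feedback genes through short kappaB sites, and because these 4 genes span the range of behaviour seen below. The first is the gene that varied most between libraries, the second its partner in the feedback loop, the third the most variable subunit, and the last the member with the smallest spread in AML. Sequences are from RefSeq on GRCm38.p6, 5′ to 3′ on the gene's strand, and end at the start site or, where GENCODE M21 places bases before it in an exon of the gene, just short of those bases. The M21 model of Tnfaip3 reaches further upstream, so its stretch lies inside that model, between exons. Capitals mark matches to the kappaB consensus decamer or to GGAANNNCC, searched on both strands, where the 2 motifs can overlap.
Tnfaip3, chr10:19015411-19015547, minus strand: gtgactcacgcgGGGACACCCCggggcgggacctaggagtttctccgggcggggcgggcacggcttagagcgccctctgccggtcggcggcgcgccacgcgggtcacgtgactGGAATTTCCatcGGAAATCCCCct
Nfkbia, chr12:55492648-55492897, minus strand: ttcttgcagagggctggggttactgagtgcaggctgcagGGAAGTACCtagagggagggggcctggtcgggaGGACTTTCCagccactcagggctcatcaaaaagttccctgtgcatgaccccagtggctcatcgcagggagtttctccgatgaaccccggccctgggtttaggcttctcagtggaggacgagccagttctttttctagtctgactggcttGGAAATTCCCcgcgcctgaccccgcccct
Rel, chr11:23770971-23771219, minus strand: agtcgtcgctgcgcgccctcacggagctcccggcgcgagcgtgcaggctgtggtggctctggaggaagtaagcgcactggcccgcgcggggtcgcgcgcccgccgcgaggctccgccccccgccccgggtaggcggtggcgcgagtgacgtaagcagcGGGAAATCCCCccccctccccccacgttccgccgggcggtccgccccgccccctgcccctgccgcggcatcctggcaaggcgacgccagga
Birc3, chr9:7873187-7873420, minus strand: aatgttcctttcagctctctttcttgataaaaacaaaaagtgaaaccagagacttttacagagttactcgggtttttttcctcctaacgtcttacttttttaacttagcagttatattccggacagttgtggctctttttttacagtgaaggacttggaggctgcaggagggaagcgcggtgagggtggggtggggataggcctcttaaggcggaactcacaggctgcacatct

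In Tnfaip3 a pair of matches, GGAATTTCC and GGAAATCCC, began 24 and 12 bases before the start site. Nfkbia had GGAAATTCCC at 29 bases, and Rel had overlapping matches that began at 92 and 91 bases. Over the 250 bases upstream, RefSeq windows were at hand for 7 members, and none for Nfkbiz, Nfkb1 or Relb. Of these 7, 4 held the decamer (Nfkbia, Nfkb2, Rel and Tnfaip3), as did 7.25% of all 32841 windows. Nfkb2, whose sequence is not shown, had the most decamer matches, 3. Its SD of log2 CPM was 0.07 over healthy and 0.18 over AML libraries. Whether matches go with the spread of a gene was not tested. GGAANNNCC was found in 5 of the 7, Bcl3 being the added one, and in 15.7% of all windows. Birc3 and Nfkbid held neither string, which says only that these letters are not in that stretch. The matches are strings of letters, and no binding was measured here.

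Among the inhibitors, Tnfaip3 stood apart. It encodes A20, a ubiquitin-editing enzyme that shuts off signalling to IKK (chromosome 10, 19000910 to 19015410, mm10). Tnfaip3 measured 2343, 2913 and 2684 CPM in healthy 1 to 3, and 2956, 742 and 581 CPM in AML 1 to 3. AML 1 lay above every healthy library, while AML 2 and AML 3 lay far below all of them, so the groups overlapped. The healthy mean was 2647 ± 287 CPM and the AML mean 1426 ± 1327 CPM (SD, n = 3 each). Against the healthy mean, AML 2 was 3.57-fold and AML 3 4.56-fold lower, and AML 1 stood at 1.12 times that mean. In read counts this was 138239 reads in AML 1 against 38745 and 27630 in AML 2 and AML 3, so counting error is small beside the gap.

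With all 6 libraries its log2 fold change was -0.89 ± 0.56 (SE), which missed the threshold of 0.05 (adjusted p = 0.641, edgeR's quasi-likelihood test with Benjamini-Hochberg adjustment). Without AML 1 it was lower in AML by 2.00 ± 0.14 on the log2 scale, at an adjusted p of 0.00380, a setting in which 1.15% of genes were called. Without AML 2 or AML 3 the adjusted p was 0.853 and 0.873, and without both healthy 1 and AML 1 it was 1.52e-04, where 3.54% of genes were called. limma-voom without AML 1, a setting chosen after seeing the data, also called Tnfaip3 and no other member, beside 2.03% of all genes. A single library thus decided this call. In the authors' deposited table Tnfaip3 had a log2 fold change of -0.89 with a p-value of 0.0341 and an adjusted p-value of 0.545.

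AML 1 also had the highest summed neutrophil markers, given above. The healthy libraries, with Tnfaip3 at a like level to AML 1, held 12.8, 0.583 and 6.34 CPM of those markers. Summed immediate early genes, a list of 11 that includes Fos and Egr1, were 17045, 16794 and 14602 CPM in AML 1 to 3, and 17903 to 23381 CPM in healthy libraries. Summed heat shock genes, a list of 10, were 4158, 4011 and 3086 CPM in AML 1 to 3 and 3528 to 10272 CPM in healthy ones. All 10 heat shock genes had negative log2 fold changes, with a median of -0.78, and 0 passed, while 7 had an unadjusted p below 0.05, beside 8.84% of all genes tested. Of the 11 immediate early genes, 8 had AML 1 above both AML 2 and AML 3, beside 38.6% of all genes tested. The same 8 had AML 2 and AML 3 below every healthy library, beside 17.6% of all genes tested. The other 3 (Fos, Jun and Zfp36) had AML 1 below both AML 2 and AML 3, beside 37.1% of all genes tested. AML 1 above, and AML 2 and AML 3 below, every healthy library, as for Tnfaip3, was seen for 2 of the 11 and for 3.58% of all genes tested. Of these 2, Nr4a1, an early response nuclear receptor, measured 488, 408 and 389 CPM in healthy 1 to 3 and 724, 173 and 147 CPM in AML 1 to 3, and Atf3 measured 98.6, 76.0 and 122 against 164, 65.1 and 45.3 CPM. With all 6 libraries 0 of the 11 immediate early genes passed, and the median log2 fold change was -0.36. An unadjusted p below 0.05 was seen for 4, all lower, beside the same 8.84% of all genes tested. Without AML 1, Nr4a1 alone of the 11 passed, as lower, beside 1.15% of all genes. Without healthy 1 and AML 1, 6 passed, all lower (Fosb, Junb, Egr1, Nr4a1, Dusp1 and Btg2), beside 3.54% of all genes. In these settings 1 and 4 of the 10 heat shock genes passed, all lower. The part of neutrophil RNA, of the early response or of heat shock genes in the Tnfaip3 values was not tested.

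**Figure D1:**
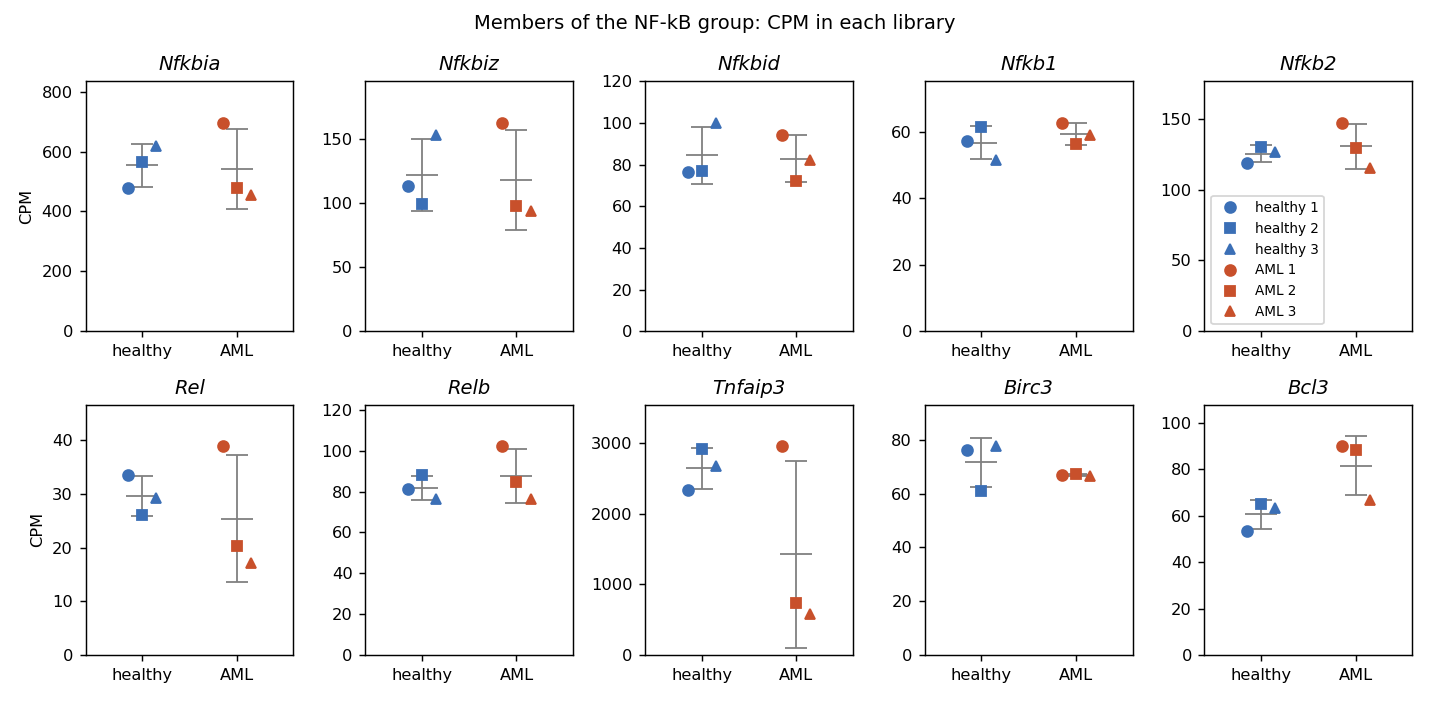
CPM of the 10 members in each library, with 1 panel per gene and its own axis from 0. Blue is healthy and red is AML, marker shapes give the library number, and grey bars are the group mean ± SD (n = 3). In the Tnfaip3 panel AML 1 lies at 2956 CPM beside the healthy libraries, and AML 2 and AML 3 lie at 742 and 581 CPM.

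Nfkbia differed less between libraries than Tnfaip3. It encodes IkB-alpha, the inhibitor that binds NF-kB dimers in the cytosol and is made anew after each activation (chromosome 12, 55489409 to 55492647). Nfkbia measured 477, 566 and 620 CPM in healthy 1 to 3 and 696, 478 and 455 CPM in AML 1 to 3. AML 1 was again the highest of all libraries, and AML 2 and AML 3 stood beside healthy 1. The log2 fold change was -0.03 ± 0.17 (SE), with an adjusted p of 0.965. Without AML 1 the log2 fold change was -0.25, at an adjusted p of 0.362, so it did not pass there either.

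The balance between these feedback genes, which no library scaling can alter, differed between libraries. Per gene length, the ratio of Tnfaip3 to Nfkbia was 1.68, 1.77 and 1.48 in healthy 1 to 3 and 1.46, 0.532 and 0.438 in AML 1 to 3. Tnfaip3 was thus the more abundant of the pair in 4 libraries and the less abundant in AML 2 and AML 3.

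The nuclear IkB proteins Nfkbiz, Nfkbid and Bcl3 act at promoters instead of holding dimers in the cytosol. Nfkbiz, which encodes IkB-zeta (chromosome 16, 55811377 to 55838641), measured 113, 99.0 and 153 CPM in healthy 1 to 3, against 162, 97.8 and 93.2 CPM in AML 1 to 3. AML 2 and AML 3 lay just below the lowest healthy library and AML 1 above the highest. Nfkbid, which encodes IkB-NS (chromosome 7, 30421732 to 30428746), measured 76.4, 76.9 and 100.1 CPM in healthy 1 to 3, against 94.3, 72.1 and 82.2 CPM in AML 1 to 3, with the groups interleaved. Their log2 fold changes were -0.05 ± 0.24 and -0.03 ± 0.14, with adjusted p of 0.959 and 0.960.

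Bcl3 was the only member whose groups did not overlap. Its protein binds p50 and p52 homodimers in the nucleus (chromosome 7, 19808462 to 19822755). It measured 53.6, 65.1 and 63.6 CPM in healthy 1 to 3 and 89.9, 88.2 and 66.8 CPM in AML 1 to 3. AML 3 lay only just above healthy 2. The log2 fold change was 0.43 ± 0.13 (SE), with an unadjusted p of 0.0141 and an adjusted p of 0.474 in edgeR's quasi-likelihood test. Across all genes tested 8.84% had an unadjusted p below 0.05 and 15.5% had groups that did not overlap, so 1 of 10 members is near that background on both counts. The authors' deposited table gives Bcl3 a log2 fold change of 0.43, a p-value of 0.00244 and an adjusted p-value of 0.163. Antisense genes overlap Bcl3 in GENCODE M21, and the libraries carry no strand, so reads of either strand cannot be told apart.

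Birc3 had the smallest spread of the members in AML, though not in healthy libraries. It encodes cIAP2, a ubiquitin ligase at TNF receptors that also restrains the non-canonical branch (chromosome 9, 7848701 to 7873170). Birc3 measured 76.2, 61.1 and 77.6 CPM in healthy 1 to 3, against 67.1, 67.5 and 66.6 CPM in AML 1 to 3, so the AML values lay inside the healthy range. Its log2 fold change was -0.10 ± 0.10, at an adjusted p of 0.776.

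Of the subunits, Rel varied most. Rel encodes c-Rel, the subunit most tied to lymphocyte activation (chromosome 11, 23741729 to 23770970). It measured 33.6, 26.1 and 29.3 CPM in healthy 1 to 3 and 38.8, 20.3 and 17.0 CPM in AML 1 to 3. As with Tnfaip3, AML 1 was above every healthy library, and AML 2 and AML 3 were below every one. The log2 fold change was -0.22 ± 0.29 (SE), with an adjusted p of 0.808. Without AML 1 it was -0.67, where the adjusted p was 0.0975 by edgeR's quasi-likelihood test and 0.00442 by DESeq2, which called 6.83% of all genes in that setting.

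The precursors Nfkb1 and Nfkb2 and the subunit Relb differed less between libraries. Nfkb1 encodes p105, which is processed to p50 (chromosome 3, 135584655 to 135691547), and it measured 57.3, 61.6 and 51.7 CPM in healthy 1 to 3, against 62.8, 56.4 and 58.98 CPM in AML 1 to 3. Nfkb2 encodes p100, which is processed to p52 and holds RelB in check (chromosome 19, 46304737 to 46312385), and it stood at 119, 130.5 and 127 CPM beside 147, 129 and 115 CPM. Relb (chromosome 7, 19606222 to 19629438), the partner of p52 in the non-canonical branch, measured 81.3, 88.1 and 76.4 CPM beside 102, 84.8 and 76.3 CPM, in the same order of libraries. All 3 had overlapping groups, and their log2 fold changes were 0.06 ± 0.09, 0.06 ± 0.10 and 0.10 ± 0.12, with adjusted p of 0.834, 0.857 and 0.796. Nfkb2 overlaps the gene Psd on the other strand, which these libraries cannot separate.

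The ratio of c-Rel to p105 transcripts per length was 1.06, 0.765 and 1.02 in healthy 1 to 3 and 1.12, 0.651 and 0.521 in AML 1 to 3, with AML 2 and AML 3 the lowest. That of Relb to Nfkb2 stayed between 0.723 and 0.832 in all 6 libraries, and here the groups overlapped.

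No member passed the test with all libraries. In edgeR's quasi-likelihood test 0 of 10 had an adjusted p below 0.05, where the background was 0% of genes. An unadjusted p below 0.05 was seen for 1, beside 8.84% of all genes tested. DESeq2, the likelihood ratio test and limma-voom also called 0 members. DESeq2 called 1.15% and the likelihood ratio test 0.802% of all genes. The median log2 fold change of the members was -0.03, with 4 positive and 6 negative, beside 0.01 over all genes tested. Adjusted p ranged from 0.474 to 0.965. These values do not show that the groups are alike, as the standard errors reached 0.56 for Tnfaip3.

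**Figure D2:**
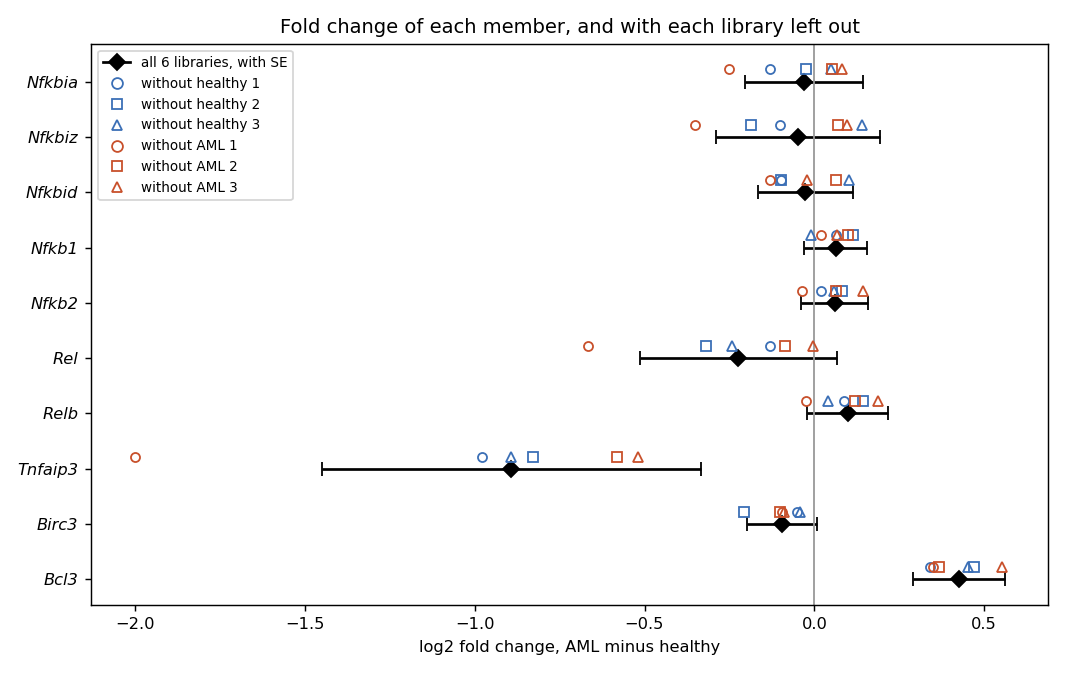
Log2 fold change (AML minus healthy) of each member with all 6 libraries (black diamonds, bars are SE) and with each library left out (open symbols). Without AML 1, Tnfaip3 moved from -0.89 to -2.00 and Rel from -0.22 to -0.67, while Bcl3 stayed between 0.34 and 0.55.

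The order of the libraries is given here as a description. For 9 of 10 members AML 1 was above both AML 2 and AML 3, which held for 38.6% of all genes tested, Birc3 being the exception. AML 1 was the highest of all 6 libraries for 8 members and for 19.9% of all genes tested. AML 3 was the lowest for 6 members (Nfkbia, Nfkbiz, Nfkb2, Rel, Relb and Tnfaip3) and for 22.1% of all genes tested. For 3 members (Tnfaip3, Rel and Nfkbiz) both AML 2 and AML 3 were below every healthy library, as for 17.6% of all genes tested. Averaged over the members, centred log2 CPM was 0.33 in AML 1, -0.19 in AML 2 and -0.32 in AML 3, against 0.00, 0.04 and 0.14 in healthy 1 to 3. In AML 2 and AML 3 Tnfaip3 weighed most in that mean, at -1.19 and -1.54. The next lowest was Rel, at -0.38 and -0.64. Nfkb2, Relb and Bcl3 were above 0 in AML 2, and Nfkb1 was above 0 in AML 3.

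The spread within AML differed widely between members. The SD of log2 CPM over the AML libraries was 1.27 for Tnfaip3, a value reached by 427 of the genes tested, or 3.42%. It was 0.63 for Rel, 0.44 for Nfkbiz and 0.34 for Nfkbia, and 0.0090 for Birc3, which 99.7% of genes tested reached. Birc3 had 3136 to 3525 reads in the AML libraries, and 0.0090 is less than counting error alone would give at such counts. In healthy libraries the SD ran from 0.07 for Nfkb2 to 0.32 for Nfkbiz, with Tnfaip3 at 0.16 and Birc3 at 0.19.

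**Figure D3:**
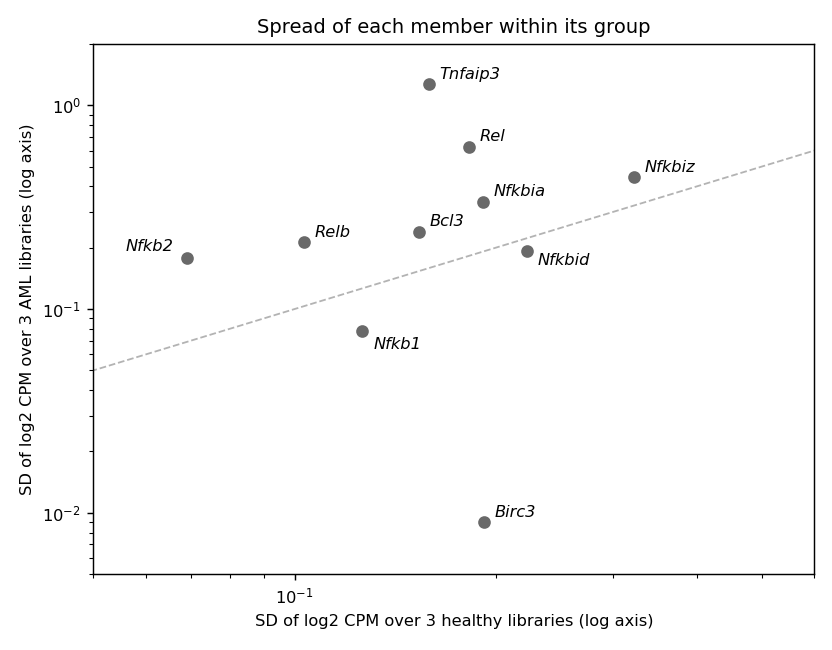
SD of log2 CPM over 3 AML libraries (vertical) against that over 3 healthy libraries (horizontal) for each member, both on log axes, with a dashed line where they are equal. Tnfaip3 lies highest at 1.27, Rel follows at 0.63, and Birc3 lies lowest at 0.0090.

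Per gene length the members covered a wide range of levels. Tnfaip3 led with a mean of 444.04 RPKM over 6 libraries (CPM over gene length in kilobases), then Nfkbia with 349, Nfkbid with 39.8, Bcl3 with 39.0, Nfkb2 with 32.8, Nfkbiz with 31.0, Relb with 26.1, Birc3 with 20.4, Nfkb1 with 12.5 and Rel with 10.7 RPKM. The gaps after Nfkbia, after Relb and after Birc3 held in all 6 libraries. The other neighbours changed places in at least 1 library, Nfkb1 and Rel in 3 of 6. In healthy libraries Tnfaip3 measured 577 ± 62.6 RPKM and ranked 92, 76 and 76 of the 24091 genes. In AML 1 it ranked 63, and in AML 2 and AML 3 it ranked 367 and 454, below Nfkbia at 158 and 153.

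**Figure D4:**
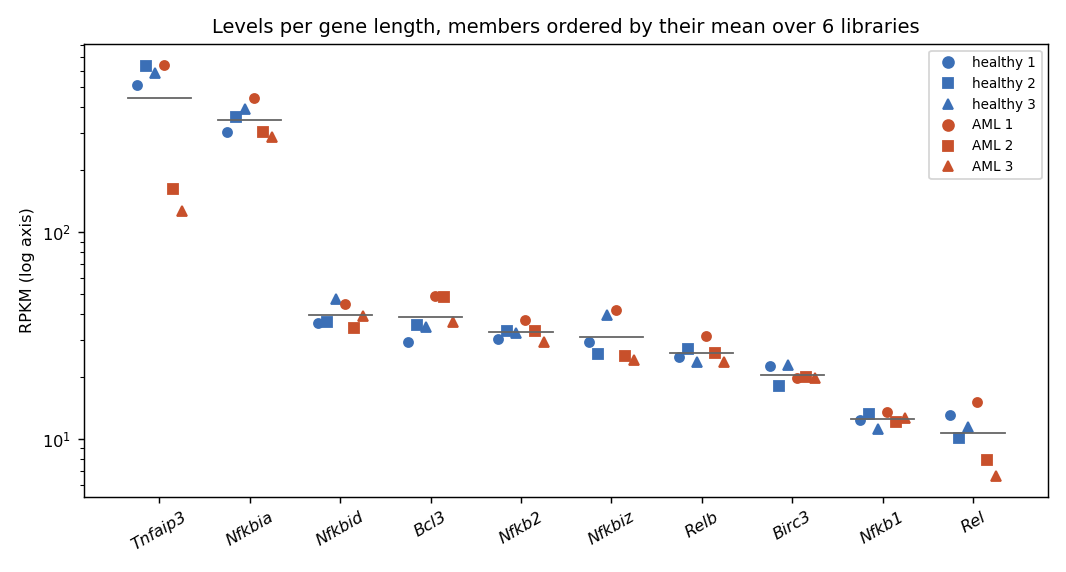
RPKM of each member in each library on a log axis, ordered by the mean over 6 libraries (grey line). Tnfaip3 and Nfkbia lie above all other members, and Tnfaip3 in AML 2 and AML 3, at 162 and 127 RPKM, lies below Nfkbia.

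The rest of the pathway was read from lists of other subunits, activators, brakes and target genes. Among the 4 other subunits and IkB genes none passed, and the median log2 fold change was -0.06. Rela, which encodes p65, the main activating subunit, measured 303, 287 and 292 CPM in healthy 1 to 3, against 288, 253 and 238 CPM in AML 1 to 3, with only AML 1 inside the healthy range. Its log2 fold change was -0.18 ± 0.09, at an adjusted p of 0.570. Nfkbil1, Nfkbie and Nfkbib had log2 fold changes of -0.11, 0.05 and -0.0050.

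Among 29 IKK subunits, upstream kinases and adaptors 0 passed, and 1 had an unadjusted p below 0.05, beside 8.84% of all genes tested. Of the 29, 15 were positive and 14 negative, with a median of 0.01. The smallest p belonged to Rnf31, the HOIP subunit of the linear ubiquitin ligase that recruits IKK. It measured 86.1, 77.1 and 89.5 CPM in healthy 1 to 3, against 97.2, 93.8 and 99.2 CPM in AML 1 to 3, which did not overlap, at a log2 fold change of 0.20 ± 0.08 and an adjusted p of 0.551. Next came the receptor adaptors Traf6 and Traf2, at -0.18 and 0.16, the IKK-related kinase Ikbke at 0.20, the receptor kinase Irak4 at 0.15 and the IKK subunit Ikbkb at -0.13.

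Among 15 other brakes on the pathway 0 passed, and the median was 0.01. An unadjusted p below 0.05 was seen for 2, beside 8.84% of all genes tested. Zc3h12a, which encodes Regnase-1, a nuclease that degrades inflammatory messenger RNAs, measured 42.0, 40.9 and 49.6 CPM in healthy 1 to 3 and 47.9, 20.9 and 20.97 CPM in AML 1 to 3. AML 1 was inside the healthy range and AML 2 and AML 3 were far below it. The difference on the log2 scale was -0.56 ± 0.31 (adjusted p = 0.618). Without AML 1 it was -1.08, with an adjusted p of 0.0117. Zc3h12a was the only one of these 15 called in that setting, beside 1.15% of all genes. Without healthy 1 and AML 1, Zc3h12a (-1.11, adjusted p = 0.00347) and Irak3 (4.21, adjusted p = 0.0335) were called, in opposite directions, beside 3.54% of all genes. For Irak3, healthy 2 lay below the level of 3 reads in that library, 0.0603 CPM. Healthy 3 was also low, so the value of 4.21 rests on few reads. Irak3, an inhibitor of Toll-like receptor signalling, measured 2.82, 0.0402 and 0.145 CPM in healthy 1 to 3 and 3.87, 2.05 and 1.47 CPM in AML 1 to 3, so healthy 1 lay among the AML libraries. The summed monocyte markers were likewise high in healthy 1, at 534 CPM, and in AML libraries, at 541 to 698 CPM. They were low in healthy 2 and healthy 3, at 67.5 and 72.5 CPM. The part of monocyte RNA in the Irak3 values was not tested. Pdlim2, Tnip1 and Tax1bp1 had log2 fold changes of -0.21, 0.16 and -0.10. Tnip3 was low throughout, at 0.161 to 0.706 CPM in healthy libraries, against 0.883 to 1.67 CPM in AML ones, and its groups did not overlap.

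Of the target genes 31 were tested and 0 passed, with a median of 0.05. An unadjusted p below 0.05 was seen for 6, 3 higher and 3 lower, beside 8.84% of all genes tested. The chemokine genes Ccl4 and Ccl3 had the smallest p, with log2 fold changes of -0.91 ± 0.25 and -0.72 ± 0.21 and adjusted p of 0.422 and 0.457. For Ccl4 the AML libraries, at 2477, 1736 and 1379 CPM, lay below the healthy ones, at 2499.5, 4315 and 3682 CPM, by a narrow margin between AML 1 and healthy 1. Without AML 1 neither passed, with adjusted p of 0.0578 for Ccl4 and 0.172 for Ccl3. Without healthy 1 and AML 1, where 3.54% of all genes were called, 4 targets passed. Ccl4, Ccl3 and the activation marker Cd69 were lower, at -1.36, -1.02 and -1.08, with adjusted p of 8.66e-04, 0.00139 and 0.00201. The cytokine gene Il1b was higher, at 2.26 (adjusted p = 0.0124). Lta, the lymphotoxin alpha gene, and Cflar, which encodes the caspase inhibitor c-FLIP, had log2 fold changes of 0.80 and 0.25. Irf4 and Ccl5 had 1.73 and -0.16, and Irf4 was at most 1.92 CPM in any library. The summed monocyte, Kupffer cell and dendritic cell markers were higher in AML libraries than in healthy 2 and healthy 3, though not every single marker was. The part of these cells in the target gene values was not tested.

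The genes whose pattern over the 6 libraries was most like a member were found by the root mean square distance between log2 CPM values centred on each gene's mean, among genes of at least 10 CPM on average. For Tnfaip3 the nearest were Maff, a small bZIP transcription factor, at a distance of 0.15, Ifrd1 at 0.17 and Ier5l at 0.17. Maff measured 77.4, 88.7 and 80.5 CPM in healthy 1 to 3 and 76.9, 25.9 and 20.4 CPM in AML 1 to 3. For Rel the nearest were Sde2, Zbtb21 and the kinase gene Sgk1, at 0.09, 0.10 and 0.11. Among those nearest to the mean of the members were Ccng2, Abtb2, the phosphodiesterase gene Pde4b and Vgll4, at 0.04 to 0.05. These genes were chosen from 8343 or 8334 candidates by their likeness, so the likeness is a description.

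**Figure D5:**
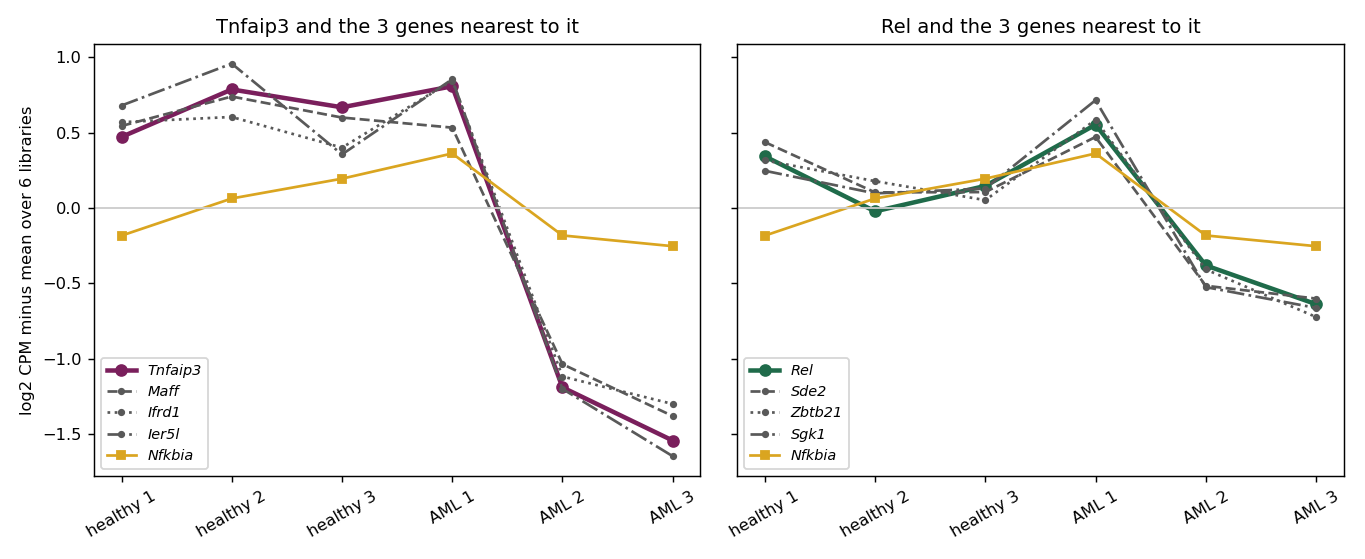
Log2 CPM minus each gene's mean over 6 libraries for Tnfaip3 (left) and Rel (right) with the 3 genes nearest to each (grey) and Nfkbia (yellow). Lines join the values of a gene and imply no order of libraries, and the values of Tnfaip3, Maff, Ifrd1 and Ier5l are high in 4 libraries and low in AML 2 and AML 3.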

How the data were processed

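Poly(A) RNA of 6 libraries was amplified from 2 ng of total RNA and read in 51 cycles without strand information, per the labels' protocols. Tools in the submitters' processing notes are edgeR 3.28.1, HTSeq 0.6.0, STAR 2.6.0 and bcl2fastq 2.18.0.12, and the builds mm10 and hg19 are listed there with no role. The authors deposited raw read counts per gene, with positions and lengths. Per the file headers, a second deposited table gives log2 fold changes and log2 mean CPM of the authors' own comparison. It also holds their likelihood ratio as a score, and the authors' p-values, raw and adjusted. The RPKM values the authors deposited beside them were not used.

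Counts were compared with edgeR 4.0.16 in R 4.3.3 (TMM, filterByExpr with a minimum count of 10, quasi-likelihood F test, two-sided, group as the only term, Benjamini-Hochberg over all 12469 genes tested, threshold 0.05). CPM used TMM library sizes, and RPKM were those CPM over the deposited length. An exact permutation test of 3 against 3 libraries cannot go below p = 0.1 and was not used. DESeq2 1.42.0 and limma 3.58.1 (limma-voom) were alternatives, as were other scaling, filters, a replicate block and leaving out libraries. The fit was tested on simulated counts. A count of 3 reads equals 0.0574 to 0.0642 CPM, and such limits cover counting error only.

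Named genes were all members, up to 6 genes of each pathway list with the smallest p, and the nearest genes by distance, of which 1 is not reported here. Members and lists were chosen with earlier results of these data known. Nr4a1, Atf3, Cd69, Il1b and the genes named by their gap were singled out after their values were seen.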

Additional observations from a re-analysis of the deposited data

How the results depend on the processing

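Results were recomputed under 18 other settings, 2 of them (DESeq2 and limma-voom without AML 1) chosen after seeing the data. Bcl3, Birc3, Rel and Tnfaip3 kept their direction in all of them, and the members' median moved by less than the SD between libraries. Bcl3 ranged from 0.27 to 0.55 and never passed, at adjusted p of 0.136 to 0.816. Tnfaip3 ranged from -2.08 to -0.52, with adjusted p from 6.95e-53 to 0.873, and passed only in the 4 settings without AML 1. The cause was not tested. With 3 libraries a group, 1 library can decide a call.

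Without scaling beyond the total count, the median of all genes moved from 0.01 to 0.07 and Nfkbia, Nfkbiz and Nfkbid stood at 0.026, 0.0059 and 0.033. With 1 or both of healthy 1 and AML 1 or any other single library left out, values ranged from -0.35 to 0.082 for Nfkbia, -0.40 to 0.14 for Nfkbiz, -0.20 to 0.10 for Nfkbid, -0.0098 to 0.11 for Nfkb1, -0.073 to 0.14 for Nfkb2 and -0.032 to 0.19 for Relb. Without AML 1, Nfkb2 and Relb were -0.040 and -0.030 by DESeq2 and -0.036 and -0.025 by limma-voom.

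Genes called in all numbered 0 with all libraries, 2 without scaling, 2 without a filter, 100 by the likelihood ratio test and 143 by DESeq2. With libraries left out they ranged from 0 to 444, the latter without healthy 1 and AML 1, with 89 without healthy 1 and 147 without AML 1. Without AML 1, DESeq2 called 872, or 6.83%, and limma-voom 259, or 2.03%. Members called ranged from 0 to 1 with libraries left out, and without AML 1 were 2 by DESeq2 and 1 by limma-voom. The pathway and target lists held 4, 29, 15 and 31 tested genes. Of these DESeq2 called 1, beside 1.15% of all genes. With libraries left out 0 to 6 were called, the 6 without healthy 1 and AML 1, beside 3.54% of all genes. Without AML 1, DESeq2 called 5 of them, beside 6.83% of all genes, and limma-voom 2, beside 2.03%.

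With the number in the titles as a replicate block, 0 genes were called, and Tnfaip3 was -1.32 with an adjusted p of 0.408. Same-numbered libraries correlated at 0.13, -0.05 and 0.16 in their deviations from the group means. Healthy 1 correlated best with AML 1 and healthy 3 with AML 3, each its own number. Healthy 2 correlated best with AML 1, at 0.06, and AML 2 with healthy 3, at 0.08. Such low values, which go both ways, do not decide whether the numbers pair the libraries. The main comparison did not pair them.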

Other observations

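Over the 8344 genes of at least 10 CPM on average, the gap between the higher of AML 2 and AML 3 and the lowest of the other 4 libraries was 1.71 on the log2 scale for Nr4a2, the largest, and 1.66, or 3.16-fold, for Tnfaip3, where this measure was chosen after the values were seen. Nr4a2, an orphan nuclear receptor of the early response, measured 214, 133 and 94.6 CPM in healthy 1 to 3 and 153, 28.9 and 25.9 CPM in AML 1 to 3. Maff, Ier5l, Vps37b, Ifrd1, Lncpint, Sik1, Zbtb10 and Rgcc followed, with gaps of 2.96-fold down to 2.48-fold. Vps37b, a sorting factor of the endosome, had CPM values like those of Tnfaip3, with gene length not taken into account. It measured 3247, 3246 and 2367 CPM in healthy 1 to 3 and 3228, 816 and 605 CPM in AML 1 to 3. The gap was at least 1 on the log2 scale for 30 genes, and above 0 for 1435 genes, or 17.2%. Among the members Rel came next, in place 171 with a gap of 1.28-fold, then Nfkbiz in place 1257 with 1.01-fold. No other member had AML 2 and AML 3 below all 4 other libraries.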
